A study of Mus musculus with 28 samples.

Results

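Livers of female mice lacking the transcription factor c-Myc in endothelial cells (EC-Myc KO) were compared with livers of floxed control females (CT), all fed the high-fat/cholesterol diet (HFC). The comparison takes the female HFC columns of the count table by their labels and holds 6 of the 28 livers of the series, from KO animals 412, 413 and 419 and CT animals 420, 510 and 512. All 6 were C57BL/6 females of 13 weeks. Controls and knockouts alike received tamoxifen at 5 weeks of age to activate Cre, then HFC from 2 weeks after the injection for 5 weeks. These intervals add up to 1 week less than the labelled age, which was not resolved. No source used here gives the Cre driver, the deleted Myc exons or whether the controls carried Cre. The other livers came from 6 females on a low-fat control diet (CTD), 3 of each genotype, and from 16 males, 4 of each genotype on each diet. RNA was taken from whole frozen liver, so hepatocyte transcripts dominate and endothelial transcripts are a minority.

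Myc is a basic helix-loop-helix factor that pairs with Max, binds E-box sequences, and is known for driving ribosome biogenesis, nucleotide synthesis and cell division. Liver sinusoidal endothelial cells line the capillaries between hepatocytes, clear waste from blood, and send Wnt signals that hold the pericentral hepatocyte programme in place. Diets rich in fat and cholesterol load hepatocytes with lipid and bring in monocyte-derived macrophages, and prolonged feeding leads to matrix deposition by stellate cells.

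The 6 libraries held 18741939 to 19079969 counts in 17429 to 17934 detected genes, and the albumin gene Alb at 71600 to 115000 CPM (counts scaled to the library total) marked all of them as liver. CPM here are also scaled by TMM factors, which ranged from 1 in CT 512 to 1.17 in KO 412. The KO livers were less alike than the CT livers. Over 9775 genes the median SD of log2 CPM within a group was 0.224 in KO and 0.141 in CT, and the lowest correlation between any pair of libraries was 0.949, between KO 412 and KO 413. On the first principal component, with 41.8% of the variance, KO 412 lay at 51.3 and KO 413 at -38.6, while the other 4 livers lay between -17 and 12.9. Values without these livers are therefore given beside the gene lists that moved with them. Markers of cells outside the parenchyma also varied: the mesothelial list had its highest median level in KO 413, at 1.21, but its highest sum in KO 412, at 429 CPM, most of it the keratin Krt8. In KO 413 Msln, a mesothelial surface protein, stood at 11.1 CPM, against 2.07 to 5.42 CPM elsewhere. Leukocyte lists were lowest in CT 512 and KO 413. The part of these markers in the results was not tested.

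The targeted gene was read first (Myc, chr15:61985391-61990374 on GRCm38, plus strand). Myc stood at 9.71, 5.46 and 4.38 CPM in CT 420, 510 and 512, and at 12.1, 4.65 and 13.3 CPM in KO 412, 413 and 419. The groups overlapped, and KO 412 and KO 419 held the highest levels. The means were 6.52 ± 2.82 CPM in CT and 10 ± 4.7 CPM in KO (SD, n = 3), a log2 fold change of 0.62 with a 95% interval of -0.61 to 1.85 and an adjusted p of 1 in edgeR's quasi-likelihood test. In males on HFC the log2 fold change of Myc was 0.45 with a standard error (SE) of 0.54. Whole-liver RNA mixes Myc from every cell type, and a count over the whole gene does not check a deletion of some exons in 1 cell type. Of 12 measured genes of the Myc, Max and antagonist network none differed at an unadjusted p under 0.05. Mlxipl, the glucose-responsive factor ChREBP, and Mycl, a Myc paralogue, had the smallest p among them, with log2 fold changes of -0.23 and -0.43. The 28 genes of ribosome biogenesis and nucleotide synthesis, classical Myc targets, had a median log2 fold change of 0.00, with 14 of 28 estimates above 0 and a range of -0.18 to 0.29. Ncl, a nucleolar protein in that programme, stood at 164, 152 and 140 CPM in CT and 151, 146 and 178 CPM in KO, with overlapping groups.

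Endothelial markers lay slightly lower in KO livers, and none was called. Among 25 genes expressed by endothelium of all vessels, 5 estimates were above 0 and the median log2 fold change was -0.11. Over all 13999 tested genes 53.1% of estimates were above 0, with a median of 0.01. Among 18 sinusoidal markers 4 estimates were above 0 and the median was -0.12. The summed level of the all-vessel list was 362 to 383 CPM in CT and 344 to 353 CPM in KO. That of the sinusoidal list was 561 to 580 CPM in CT and 474 to 559 CPM in KO. Neither sum overlapped between genotypes on this scale. The separation depends on the TMM factors, lowest in CT 512 at 1. Scaled to library totals alone, CT 512 fell below or among the KO livers and both sums overlapped. The mesothelial sum was the only other list sum without overlap, at 158 to 198 CPM in CT and 199 to 429 CPM in KO. Most of that sum was Krt8 in every liver, a keratin that hepatocytes and ducts also express. The list medians of mesothelial genes overlapped, at -0.75 to 0.56 in CT and -0.63 to 1.21 in KO. In bulk RNA, fewer cells of a type and less RNA per cell cannot be told apart. The medians were -0.12 and -0.17 without KO 412, and -0.18 and -0.11 without KO 413. Scaled to library totals alone they were -0.04 and -0.06, while the median of all genes moved to 0.07. In males on HFC, in other animals, the medians were -0.10 and -0.12, and in females on CTD both were 0.01.

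Vwf, the clotting adhesion protein made by endothelium of larger vessels, stood at 3.3, 4.17 and 5.28 CPM in CT and at 3.29, 2.56 and 2.87 CPM in KO. The highest KO value lay just under the lowest CT value, and the log2 fold change was -0.54 (SE 0.24, unadjusted p = 0.0432). Flt1, a receptor for vascular endothelial growth factor, held 7.87, 8.57 and 8.06 CPM in CT against 5.11, 6.92 and 6.36 CPM in KO. These groups did not overlap either, with a log2 fold change of -0.41 (SE 0.19). The nuclease gene Dnase1l3, a marker of sinusoidal cells, was at 45, 44.7 and 44.9 CPM in CT and 26.5, 35.9 and 40.5 CPM in KO. All 3 KO values were lower, most so in KO 412. The scavenger receptor Stab2 was at 57, 54.3 and 54.3 CPM in CT and 47.4, 50.5 and 44.4 CPM in KO, and the sinusoidal receptor Gpr182 likewise did not overlap, with a log2 fold change of -0.32 (SE 0.22). Pan-endothelial Cdh5, the junction protein VE-cadherin, overlapped between groups at a log2 fold change of -0.05 (SE 0.35), as did Pecam1 at -0.25 (SE 0.28) and Kdr at -0.28 (SE 0.29). In total 2 of 25 and 3 of 18 markers did not overlap, all lower in KO, where 2.67% of all genes had KO below CT without overlap. Part of this depends on the TMM scaling. On library totals alone at least Vwf, Stab2 and, narrowly, Dnase1l3 overlapped, while Flt1 stayed apart. Wnt2, an angiocrine Wnt ligand of pericentral endothelium, had overlapping groups at a log2 fold change of -0.34 (SE 0.31).

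**Figure D1:**
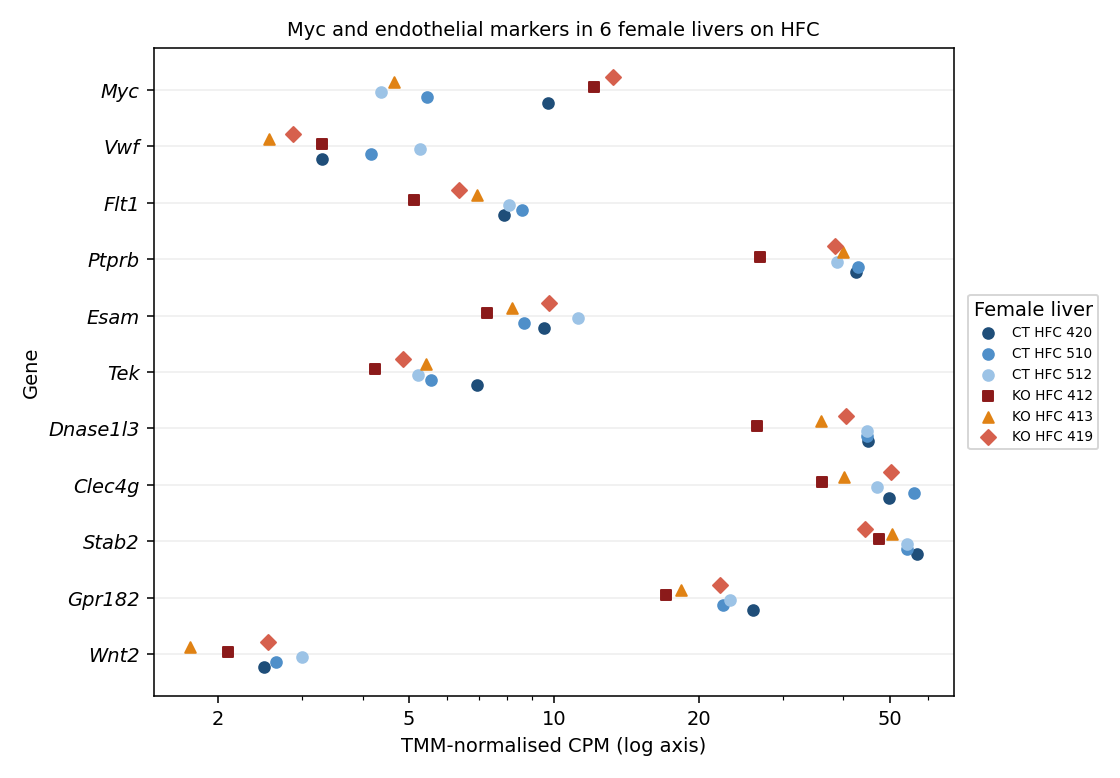
TMM-normalised CPM on a log axis of Myc, 5 markers of all vessels and 5 sinusoidal markers with the smallest p, 1 point for each female HFC liver (circles CT, other shapes KO). Vwf, Flt1, Dnase1l3, Stab2 and Gpr182 have all 3 KO points below the 3 CT points, while Myc and the remaining markers overlap.

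Activation and adhesion genes of endothelium had a median of 0.09, with 11 of 15 estimates above 0, and a median of -0.05 without KO 412. Icam1, the leukocyte adhesion molecule, stood at 45, 44.2 and 22.2 CPM in CT and at 53.4, 24.7 and 68.2 CPM in KO. CT 512 and KO 413 were the low livers, as for the leukocyte lists, and the groups overlapped. Cav1, the coat protein of caveolae, which mesothelium also expresses, reached 11.5 CPM in KO 413 against 2.22 to 5.5 CPM in the other livers. Its log2 fold change was 0.58 in all 6 livers and -0.24 without KO 413.

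Across all genes, 0 of 13999 (0%) were called between KO and CT females on HFC at an adjusted p under 0.05 in edgeR's quasi-likelihood test. At an unadjusted p under 0.05 there were 311 genes (2.22%), 159 higher (1.14%) and 152 lower (1.09%) in KO. DESeq2 also called 0 genes, with 317 at an unadjusted p under 0.05, and limma voom with sample quality weights called 0, with 1196. On the deposited CPM, limma called 0 with 316. The smallest unadjusted p in the edgeR fit was 0.000291, for Sult3a1. Values of the 3 KO and 3 CT livers did not overlap for 765 genes (5.46%), 391 higher (2.79%) and 374 lower (2.67%) in KO. For a gene without a difference, 3 against 3 values separate fully with a probability of 0.1, so 5.46% is no excess. The median absolute log2 fold change was 0.126 and the median SE 0.192. The 95% interval of the difference lay inside a 2-fold change in either direction for 10954 genes (78.2%), and inside 1.5-fold for 52.9%. Among the 9775 genes averaging 5 CPM or more in a group, these shares were 92.7% and 72%. The intervals use 1 spread shared by all 12 female libraries. Median SDs were 0.172 and 0.145 in CT and KO on CTD, below the 0.224 of KO on HFC. The intervals may thus be too narrow here. Fitted on the 6 HFC libraries alone, edgeR gave 183 genes at an unadjusted p under 0.05. For genes with wider intervals, larger differences remained possible with 3 animals a group, and a missed threshold does not show that the genotypes were alike.

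**Figure D2:**
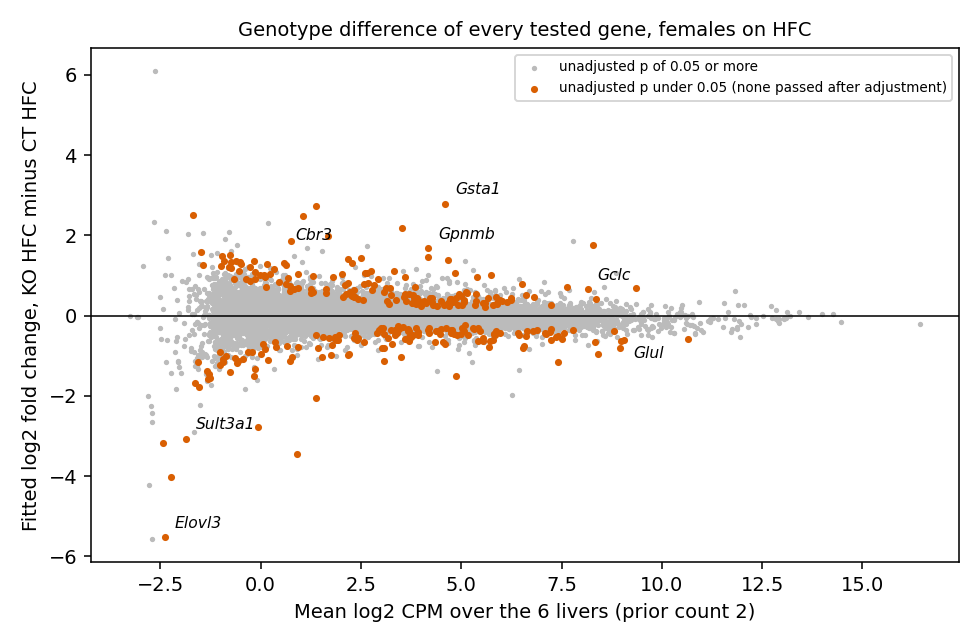
Fitted log2 fold change (KO minus CT, vertical axis) of every tested gene against its mean log2 CPM over the 6 livers, with the 311 genes at an unadjusted p under 0.05 in orange. Estimates scatter about 0 at all levels and spread widest at low levels, and no gene passed after adjustment.

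The genes of smallest p that averaged at least 5 CPM in 1 of the groups, without overlap, are described next as values, since none was called. They were picked for that separation, so it is no support for them. Among the higher ones, Kmt5a, which methylates histone H4 at lysine 20, stood at 29.1, 25.8 and 25.9 CPM in CT and at 44.7, 32.5 and 35.9 CPM in KO. Every KO liver lay above every CT liver, and the log2 fold change was 0.48 (SE 0.13). In females on CTD that difference was -0.14 (SE 0.14) and in males on HFC 0.10 (SE 0.15). Trem2, a lipid-sensing receptor of lipid-associated macrophages, held 8.43, 8.2 and 10.2 CPM in CT and 25.2, 10.7 and 15.9 CPM in KO. KO 413 lay only just above CT 512, and the log2 fold change was 0.95 (SE 0.29). Nupr1, a stress-induced chromatin protein, stood at 4, 2.73 and 2.03 CPM in CT and 14.2, 4.74 and 4.62 CPM in KO, a log2 fold change of 1.42 (SE 0.42). KO 412 was far above the rest, and only through it did the KO mean of Nupr1 pass 5 CPM. Gclc, the catalytic subunit of the enzyme that limits glutathione synthesis, held 242, 251 and 195 CPM in CT and 417, 270 and 393 CPM in KO, a log2 fold change of 0.65 (SE 0.21). KO 413 was again nearest to the controls. The other 6 had log2 fold changes of 0.37 to 1.03: Plekha1, a phosphoinositide-binding adaptor, Dhrs9, a retinol dehydrogenase family member, Cdk5rap1, a tRNA-modifying enzyme, Pvr, a nectin-like adhesion receptor, Mphosph10, a component of the small-subunit processome, and S100a6, a calcium-binding protein. For Cdk5rap1 alone among the 10, KO 413 was the highest KO liver.

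Among the lower ones, Map2k6, the kinase that activates p38, stood at 10.6, 10.3 and 11.4 CPM in CT and at 4.57, 7.78 and 6.27 CPM in KO. The groups were well apart, with a log2 fold change of -0.80 (SE 0.18, unadjusted p = 0.000728, adjusted p = 1 by edgeR). Glul, glutamine synthetase of the hepatocytes next to the central vein, held 624, 655 and 712 CPM in CT and 331, 503 and 468 CPM in KO. All 3 KO livers were lower, at a log2 fold change of -0.61 (SE 0.17). Slc1a2, a glutamate transporter of the same pericentral cells, held 102, 125 and 148 CPM in CT and 47.9, 78.7 and 88.2 CPM in KO, a log2 fold change of -0.81 (SE 0.24). Il6ra, the interleukin 6 receptor of hepatocytes, stood at 48.5, 49.6 and 59.7 CPM in CT and 30.7, 36.5 and 35.4 CPM in KO. Its KO values lay close together and under all controls, with a log2 fold change of -0.62 (SE 0.19). Chac1, a glutathione-degrading enzyme induced by the integrated stress response, held 8.62, 14.5 and 10.2 CPM in CT and 5.48, 6.31 and 7.26 CPM in KO, a log2 fold change of -0.81 (SE 0.21). In males on HFC its log2 fold change was -0.94 (SE 0.25), without a call by edgeR. For each of the other leading lower genes the male KO and CT values overlapped. The acute-phase inhibitor Serpina3n held 534, 782 and 582 CPM in CT and 458, 385 and 374 CPM in KO, and the metal-binding protein Mt1 held 367, 755 and 356 CPM in CT and 314, 184 and 258 CPM in KO. Both were highest in CT 510. The other 3 were Fam47e, Nxpe2 and Amigo2, an adhesion protein, at log2 fold changes of -0.98, -0.63 and -0.57.

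**Figure D3:**
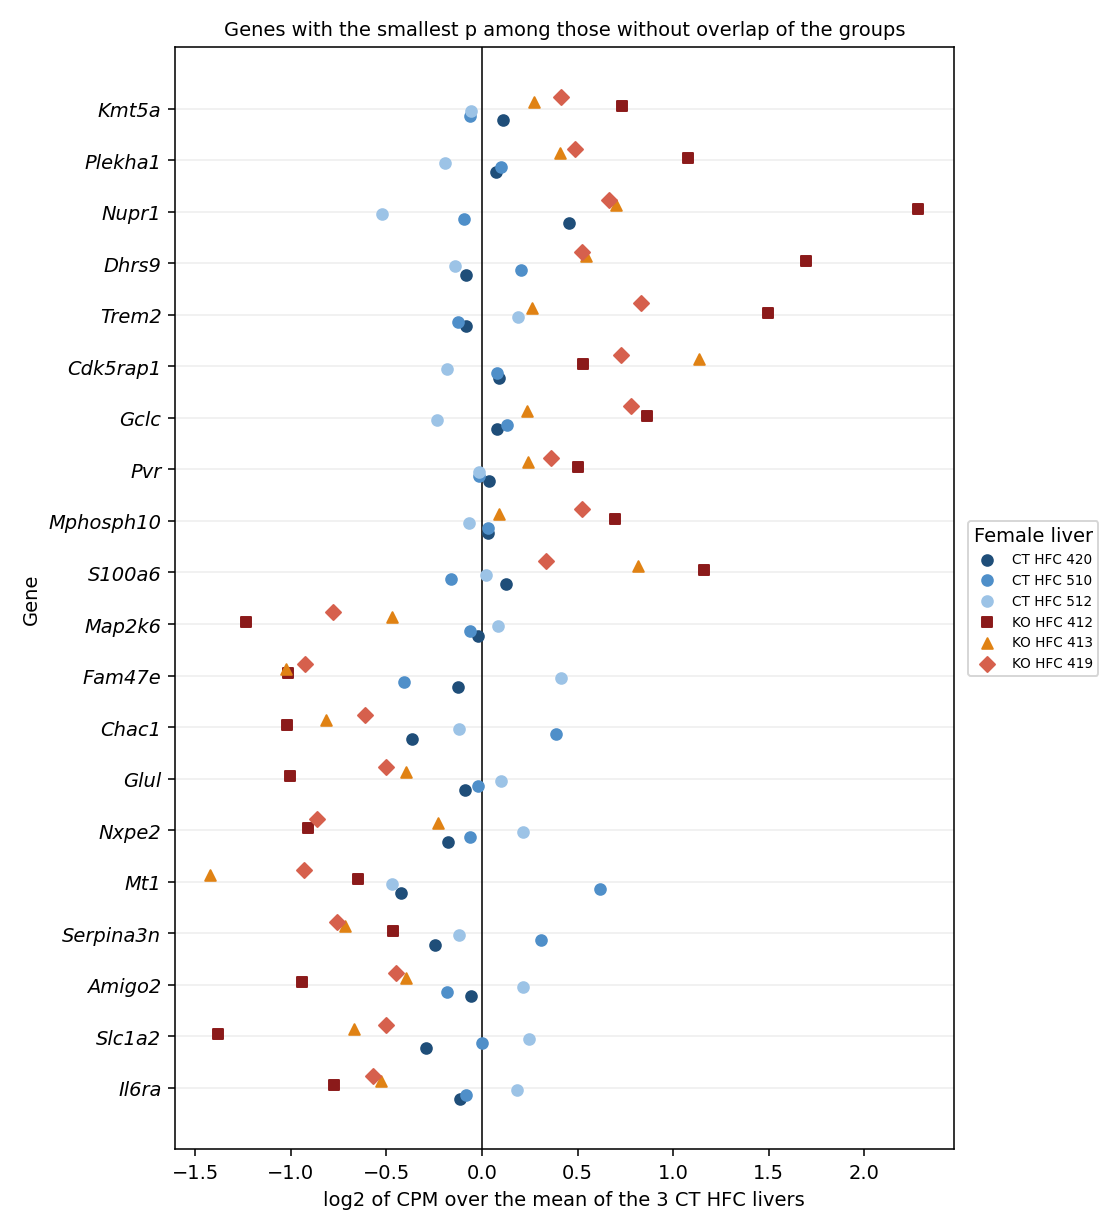
Log2 of CPM over the CT HFC mean for the 20 genes of smallest p whose groups do not overlap, 1 point for each liver (circles CT, other shapes KO). The separation was the condition for showing them. KO 412 (squares) is the most distant KO liver for most, and Cdk5rap1, Fam47e and Mt1 have KO 413 (triangles) farthest out.

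Promoters of these genes were read for the E-box CACGTG, the sequence that Myc and Max bind and that reads the same on both strands, in RefSeq windows of GRCm38.p6 from 250 bases before to 50 after the start. Of 18 leading genes with a window, 3 (16.7%) held it, where 2187 of 27025 genes in the table did (8.09%). The windows of Il6ra and Nupr1 hold it before the start, and their surroundings are printed here 5′ to 3′ on the minus strand with the E-box in capitals, because these are the leading genes with a possible Myc-Max sequence upstream.
Il6ra, chr3:89913190-89913245: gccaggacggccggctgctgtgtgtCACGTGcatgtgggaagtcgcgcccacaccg
Nupr1, chr7:126625665-126625720: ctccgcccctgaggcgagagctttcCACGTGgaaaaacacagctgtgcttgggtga
The E-box begins 24 bases before the start in Il6ra and 225 bases before it in Nupr1. In S100a6 it lies after the start. Other factors of the same family bind this sequence, no binding was measured here, and the genes differ in direction, Il6ra being lower and Nupr1 higher in KO.

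NRF2 target genes stood above the controls in KO 412 and KO 419, and within the controls in KO 413, by the median level of their list. NRF2 is the factor that induces such genes under oxidative or electrophilic stress. Of 21 NRF2 targets other than glutathione transferases, 20 estimates were above 0 and the median log2 fold change was 0.42. At an unadjusted p under 0.05, 6 of the 21 were higher and 0 lower, against 1.14% and 1.09% of all genes, and 0 were called. The gene lists here and below were chosen with earlier results of these data known. Such counts beside the share of all genes are therefore a description and no support for a list. The median level of the list relative to the CT mean was 0.87 in KO 412, 0.55 in KO 419 and -0.10 in KO 413 on the log2 scale. Without KO 412 the median fold change was 0.23, and without KO 413 it was 0.67. Ugdh, which makes UDP-glucuronic acid for conjugation, held 69.2, 77.3 and 69.1 CPM in CT and 163, 67.5 and 143 CPM in KO. Nqo1, the quinone reductase, held 10.9, 14.2 and 9.61 CPM in CT and 26.3, 10.2 and 20.3 CPM in KO. In both, KO 413 sat within or under the controls while the other KO livers stood well above them. Gclm, the regulatory partner of Gclc, did not overlap between groups, at a log2 fold change of 0.25 (SE 0.13).

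Glutathione transferases conjugate electrophiles. Of 22 genes, 5 were higher and 0 lower at an unadjusted p under 0.05, against 1.14% and 1.09% of all genes. The median was 0.16, and it was 0.01 without KO 412 and 0.28 without KO 413. By livers the list stood at -0.19, -0.02 and 0.22 in CT 420, 510 and 512, and at 0.56, -0.21 and 0.13 in KO 412, 413 and 419. Only KO 412 lay above all controls. Gsta1 stood at 13.1, 17.1 and 11.1 CPM in CT and at 213, 5.55 and 67.7 CPM in KO. Gstm3 stood at 162, 220 and 272 CPM in CT and at 1540, 114 and 546 CPM in KO. KO 413 was the lowest of the 6 livers for both genes and KO 412 the highest, so the KO group spans the controls. Transferases have near-identical copies, and their counts are uncertain where reads could be split between copies. In females on CTD the medians of the NRF2 and transferase lists were -0.04 and -0.07, and in males on HFC 0.03 and 0.07.

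Leaving out KO 413 gave the only calls of this comparison among the 6 fits that left out 1 liver each: 9 genes passed at an adjusted p under 0.05 by edgeR's quasi-likelihood test, and 1471 had an unadjusted p under 0.05. The higher genes were Ugdh, Gstp1, Gstp2, the carbonyl reductase Cbr3 and the sulfiredoxin Srxn1, which repairs oxidised peroxiredoxins. The lower ones were the cytochrome P450 genes Cyp4f14 and Cyp2c50, the leucine-rich repeat gene Lrrc3, and Sult3a1, a sulfotransferase. Gstp1 held 572, 551 and 531 CPM in CT and 1100, 381 and 1170 CPM in KO. Its log2 fold change was 1.04 (SE 0.16, adjusted p = 0.0371 by edgeR) without KO 413 and 0.68 (SE 0.31, adjusted p = 1) with it. Cyp4f14, a fatty acid omega-hydroxylase family member, held 96.9, 82.6 and 100 CPM in CT and 42.7, 165 and 29.4 CPM in KO. Here KO 413 was the highest liver of all, and the log2 fold change was -1.37 without it and -0.24 with it. KO 413 lay inside the CT range for 4 of the 9 genes, beyond the controls on the opposite side for 4, and on the side of the other KO livers for 1, Sult3a1. The 9 genes were picked by leaving KO 413 out, so its distance from the other KO livers on them is no support for it as the outlier. Which of these livers stands for the genotype cannot be told apart with 3 animals. Without KO 412, 0 genes were called, with 278 at an unadjusted p under 0.05.

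**Figure D4:**
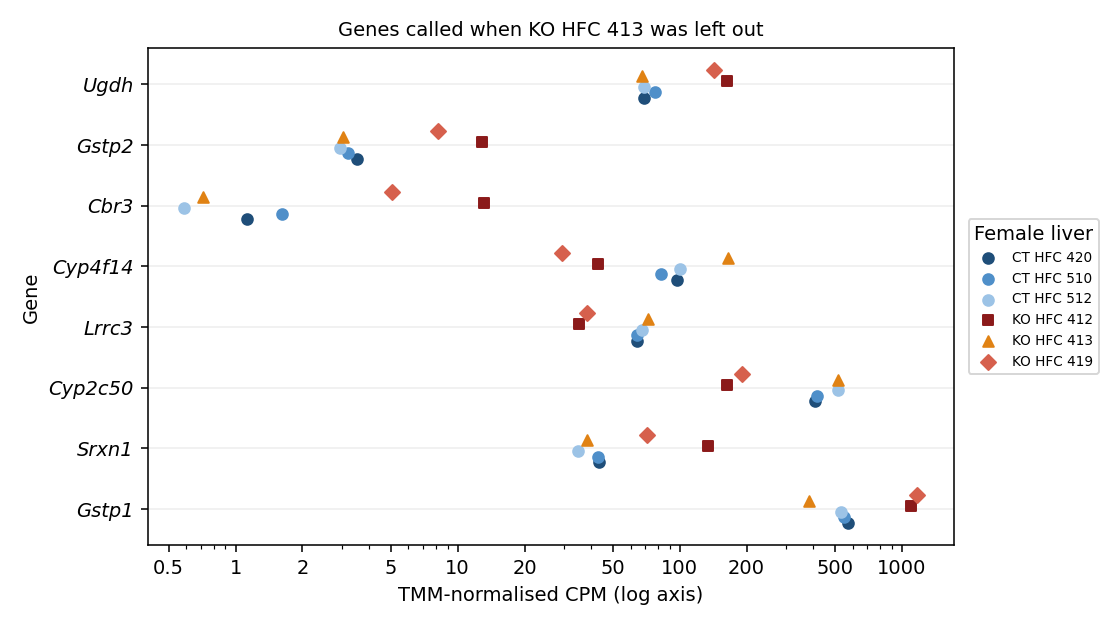
TMM-normalised CPM on a log axis of 8 of the 9 genes called when KO 413 was left out, 1 point for each liver (circles CT, other shapes KO). KO 412 and KO 419 stand apart from the controls, while KO 413 (triangles) lies within the controls or beyond them on the other side. Leaving KO 413 out was the condition for showing these genes. Sult3a1, with 0 counts in KO 412 and KO 419, has no place on this axis.

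Macrophage genes differed widely among the KO livers. Of 18 genes of lipid-associated and recruited macrophages all 18 had estimates above 0, with a median log2 fold change of 0.65 and 0 called. At an unadjusted p under 0.05, 3 were higher and 0 lower, against 1.14% and 1.09% of all genes. The list stood at 1.51 in KO 412, 0.62 in KO 419 and -0.42 in KO 413 relative to the CT mean, and its median was 0.04 without KO 412 and 1 without KO 413. Gpnmb, a lysosomal glycoprotein of lipid-laden macrophages, held 12.5, 12.8 and 12.2 CPM in CT and 90.5, 10.1 and 19.2 CPM in KO. Mmp12, the macrophage elastase, held 14.7, 9.4 and 14.9 CPM in CT and 71.3, 8.58 and 26.8 CPM in KO. For both, KO 413 was the lowest liver and KO 412 stood far above every other. Lgals3, galectin 3, followed the same order at 145, 12.5 and 47.6 CPM in KO against 23.1 to 28.7 CPM in CT.

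The 23 general macrophage and monocyte genes had a median of 0.40, of -0.01 without KO 412, 0.72 without KO 413 and 0.15 without CT 512. Their summed level was 841 to 1330 CPM in CT and 676 to 2190 CPM in KO. Cd68, a lysosomal macrophage marker, stood at 34, 32 and 29 CPM in CT and at 86.3, 17.8 and 41.3 CPM in KO. The 14 measured CC chemokines and receptors had a median of 0.43, of 0.02 without KO 412, 0.80 without KO 413 and 0.13 without CT 512. Ccl2, the chief monocyte attractant, held 5.8, 3.38 and 1.6 CPM in CT and 6.39, 1.42 and 13.1 CPM in KO. MHC class II genes had a median of 0.44, of 0.11 without KO 412, 0.88 without KO 413 and 0.03 without CT 512. CT 512 and KO 413 stood at -1.25 and -1 while the other 4 livers stood between 0.50 and 1.12. H2-Ab1, a class II beta chain, was at 121, 166 and 27.6 CPM in CT and 216, 39.6 and 204 CPM in KO. Thus 1 liver of each genotype was low, and among the other 4 both KO livers were above both CT livers. The low livers were set aside after the values were seen, so this ordering is no support for a difference.

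Markers of resident Kupffer cells had a median of 0.20, with 9 of 11 estimates above 0. Without KO 412 the median was 0.02 with 6 of 11 above 0, without KO 413 it was 0.34, and it was 0.05 without CT 512 and 0.05 without KO 419. Cd163, a haemoglobin scavenger receptor, stood at 16.3, 18.5 and 14.1 CPM in CT and at 6.48, 6.02 and 11.3 CPM in KO. It was lower in all 3 KO livers, at a log2 fold change of -1.04 (SE 0.41, unadjusted p = 0.0291), and at -0.91 without KO 412. Clec1b was at 18.8, 20.4 and 16.2 CPM in CT and at 40.2, 10.5 and 28.9 CPM in KO, with KO 413 below and the other KO livers above the controls. Timd4, a phosphatidylserine receptor of resident cells, overlapped at a log2 fold change of 0.20 (SE 0.67), and Adgre1, which encodes F4/80, at -0.05 (SE 0.62). T and NK cell genes had a median of -0.04, B and plasma cell genes -0.03, neutrophil genes -0.09 and dendritic cell genes 0.05, and each of these turned sign when some single liver was left out. The 27 interferon response genes had a median of 0.22 with 25 estimates above 0, at 0.37, -0.64 and 0.60 in KO 412, 413 and 419. Their median was 0.08 without KO 412, 0.55 without KO 413 and -0.06 without KO 419. Males on HFC had medians of 0.48 for the lipid-associated list, 0.38 for general macrophages, 0.50 for CC chemokines and 0.52 for class II genes. These male medians were not computed without single livers. Male KO 414 held 71.5 CPM of Gpnmb and 57 CPM of Mmp12, while every other male HFC liver held at most 24.1 and 24.8 CPM. In females on CTD these medians were 0.05, 0.18, 0.23 and 0.49.

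**Figure D5:**
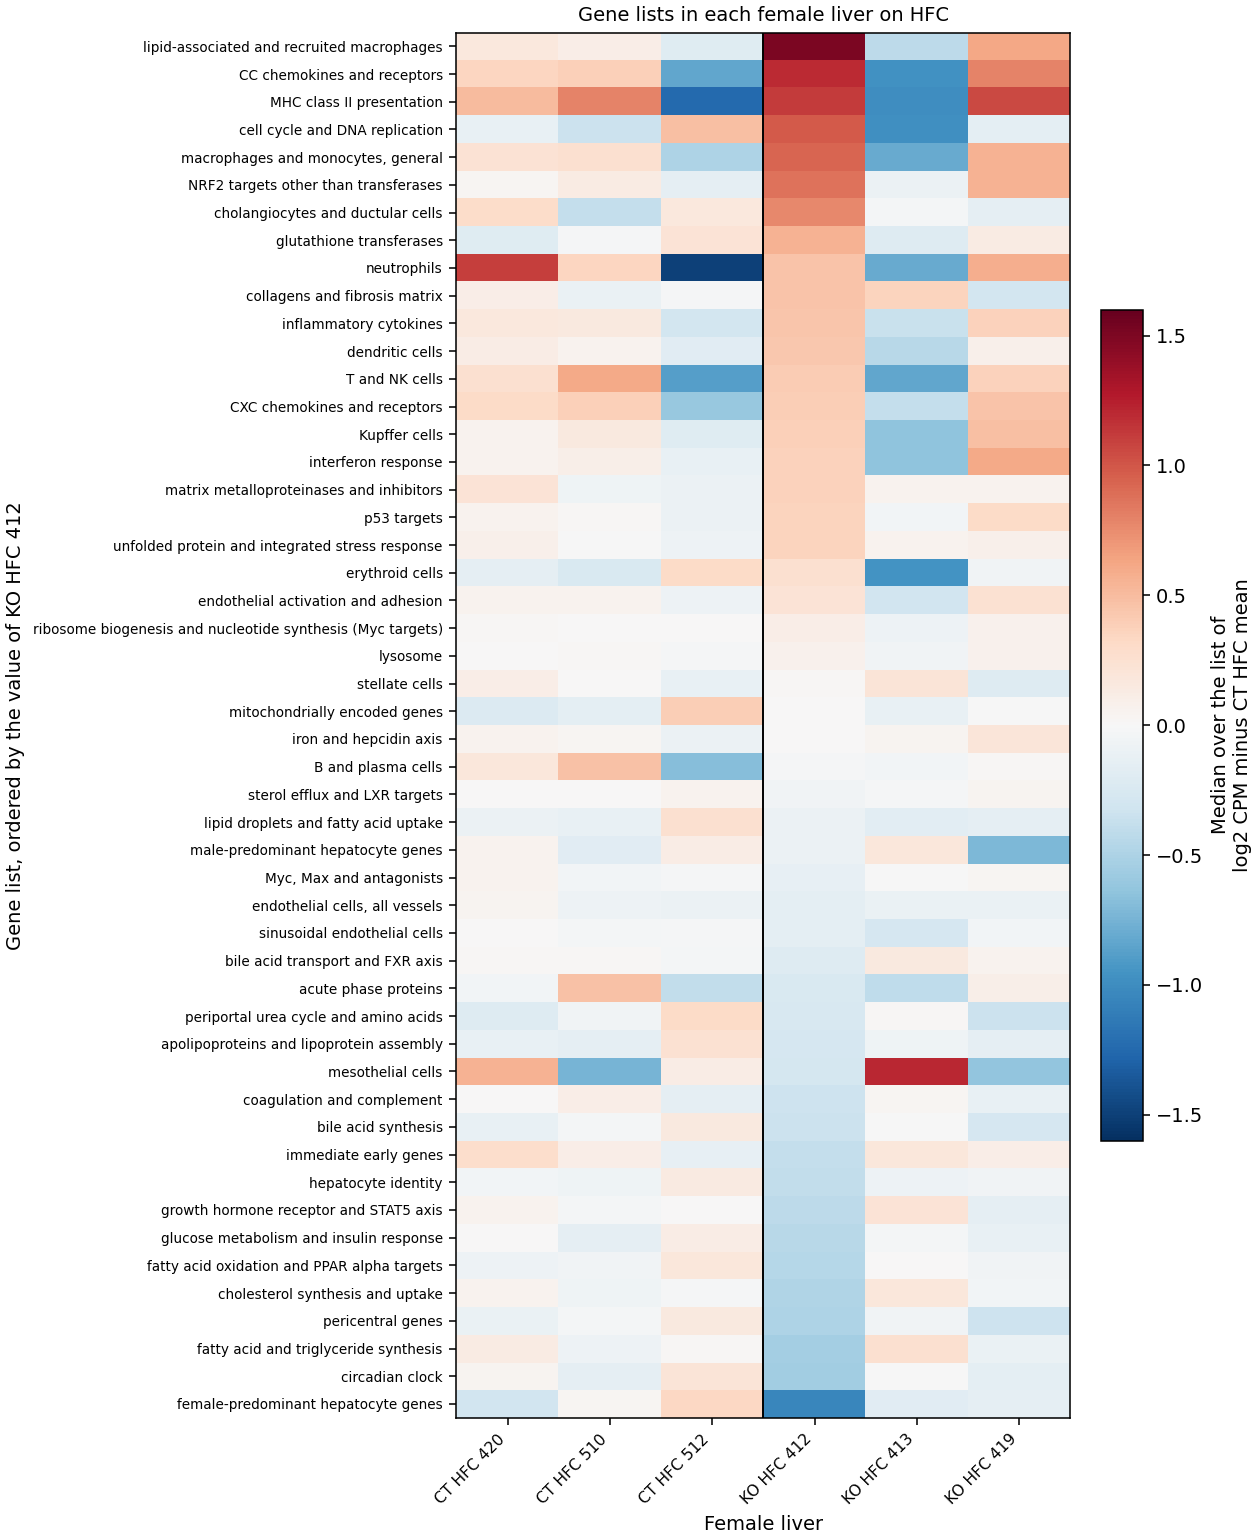
Median over each of 50 gene lists of log2 CPM minus the CT HFC mean (colour, red above and blue below 0), with lists in rows and the 6 livers in columns. Most immune lists are red in KO 412 and KO 419 and blue in KO 413 and CT 512, and the female-predominant list is lowest in KO 412 at -1.04.

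By list medians, collagen and matrix genes stood highest in KO 412, at 0.46, and lowest in KO 419, at -0.29, and none was called. By summed level the order differed, with 2130, 2650 and 1840 CPM in KO 412, 413 and 419 against 2230 to 2430 CPM in CT. The 33 measured genes of collagen and fibrosis matrix had a median log2 fold change of 0.25, with 27 estimates above 0. It was 0.07 without KO 412 and turned to -0.16 in limma voom with sample quality weights. Col1a1, the main fibrillar collagen chain, held 19.2, 16.3 and 18.5 CPM in CT and 57.3, 22 and 10.1 CPM in KO. The KO livers thus ran from far above to below all controls, and the log2 fold change was 0.73 (SE 0.54), or -0.16 without KO 412. Acta2, smooth muscle actin of activated stellate cells, stood at 1.79, 1.99 and 2.35 CPM in CT and at 4.34, 1.52 and 1.74 CPM in KO. Timp1, an inhibitor of matrix metalloproteinases, stood at 0.612, 1.02 and 1.17 CPM in CT and at 4.11, 0.806 and 1.08 CPM in KO. Only KO 412 was above the controls for both. The 18 stellate cell markers had a median of 0.06, or -0.14 with sample quality weights, and Tgfb1, the fibrogenic cytokine, a log2 fold change of 0.04 (SE 0.30). The collagen list had medians of 0.21 in females on CTD and 0.29 in males on HFC.

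Cell cycle genes split the KO livers. The 28 genes stood at 0.98 in KO 412, -0.98 in KO 413 and -0.16 in KO 419, and their median log2 fold change was 0.16, or -0.32 without KO 412 and 0.55 without KO 413. Mki67, a marker of dividing cells, held 9.52, 9.49 and 17 CPM in CT and 38.5, 2.51 and 10 CPM in KO. Both the highest and the lowest liver were knockouts. The p53 target Cdkn1a, a cell cycle inhibitor, held 12.6, 13.1 and 13 CPM in CT and 41.8, 10.1 and 19 CPM in KO. Eda2r, a death receptor of the same list, did not overlap, at 3.16, 2.69 and 1.6 CPM in CT and 4.93, 4.17 and 5.47 CPM in KO, with a log2 fold change of 0.96 (SE 0.39). In males on HFC the cell cycle list had a median of 0.57.

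Hepatocyte genes of the pericentral zone stood below the controls in KO 412 and KO 419, at list medians of -0.50 and -0.33, and within them in KO 413, at -0.06. Of 18 genes, 3 estimates were above 0, the median log2 fold change was -0.31, and 4 were lower and 0 higher at an unadjusted p under 0.05, against 1.09% and 1.14% of all genes. The 4 were Glul and Slc1a2, described above, the ornithine aminotransferase Oat and Gulo, the last enzyme of vitamin C synthesis. Oat held 128, 195 and 257 CPM in CT and 92.5, 164 and 124 CPM in KO, with overlapping groups. Cyp2e1, the ethanol-oxidising P450, held 4690, 4940 and 5480 CPM in CT and 1640, 5520 and 3200 CPM in KO. KO 413 was the highest liver and KO 412 the lowest. Axin2, a direct target of Wnt signalling, overlapped at a log2 fold change of -0.02 (SE 0.24), and Cyp1a2 at 0.18 (SE 0.27). The median fold change of the list was -0.16 without KO 412 and -0.46 without KO 413, 0.13 in females on CTD and -0.13 in males on HFC. Periportal genes of the urea cycle and amino acid metabolism had a median of -0.19, or 0.01 without CT 512 and -0.36 without KO 413, and 21 hepatocyte identity genes had -0.17, or -0.06 without KO 412.

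Female-predominant hepatocyte genes, which depend on the continuous growth hormone pattern of females, had a median of -0.40 over 31 tested genes, with 5 estimates above 0. At an unadjusted p under 0.05, 3 were lower and 0 higher, against 1.09% and 1.14% of all genes. The list stood at -1.04 in KO 412, -0.18 in KO 413 and -0.15 in KO 419, and the median was -0.11 without KO 412 and -0.62 without KO 413. Sult3a1 had 7, 9 and 11 raw counts in CT and 0, 3 and 0 in KO, a ratio of 0.111 with a counting interval of 0.0215 to 0.36 that leaves out the spread between animals. In CT females on CTD the same gene stood at 55.3 CPM, so HFC livers of both genotypes held little of it. Elovl3, a fatty acid elongase listed as male-predominant, had 1, 8 and 9 counts in CT and 0 in every KO liver, for which the upper counting limit of the KO to CT ratio is 0.227. Cyp17a1, a steroid hydroxylase, held 19.8, 29.1 and 127 CPM in CT and 23.1, 19.3 and 19.4 CPM in KO. CT 512 stood far above the other 5 livers. Socs2, a feedback inhibitor induced by growth hormone, held 36.7, 27.4 and 26.3 CPM in CT and 34.5, 34.4 and 45.5 CPM in KO.

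Lipid, bile acid and glucose genes of the hepatocyte had list medians from -0.26 (bile acid synthesis) to 0.07 (sterol efflux), and none was called. Fatty acid oxidation and PPAR alpha targets had a median of -0.16 with 4 of 30 estimates above 0, bile acid synthesis -0.26 with 3 of 16, and glucose metabolism and insulin response -0.18 with 5 of 20. Without KO 412 the medians were -0.06, -0.09 and -0.08, and without KO 413 -0.24, -0.34 and -0.35. Cholesterol synthesis and uptake had a median of -0.03, or 0.04 without KO 412, and fatty acid and triglyceride synthesis -0.06, or 0.13 without KO 412. Cyp7a1, the rate-limiting enzyme of bile acid synthesis, held 10.9, 15.8 and 24.8 CPM in CT and 7.63, 27.1 and 4.24 CPM in KO, so the KO livers spanned the controls. Slc10a1, the bile acid importer NTCP, held 392, 419 and 461 CPM in CT and 129, 395 and 283 CPM in KO. KO 413 again lay among the controls. Fgf21, a stress-induced hepatokine, held 5.7, 2.87 and 4.48 CPM in CT and 12.3, 4.36 and 10.6 CPM in KO. Lipe, hormone-sensitive lipase, did not overlap, at 15.6, 17.3 and 14.9 CPM in CT and 8.95, 12.5 and 11.7 CPM in KO, a log2 fold change of -0.53 (SE 0.16). Pfkfb1, which sets the level of fructose 2,6-bisphosphate in liver, was at 23.7, 22.3 and 32.5 CPM in CT and at 19.5, 20.2 and 17 CPM in KO, also without overlap. Pck1, which catalyses an early step of gluconeogenesis, was at 1830, 1720 and 2860 CPM in CT and at 1500, 1690 and 1560 CPM in KO.

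The same genotype comparison in females on CTD called 0 of 13999 genes (0%) by edgeR, with 446 (3.19%) at an unadjusted p under 0.05, and limma voom with sample quality weights called 0, with 945. DESeq2 called 1, Fbf1, lower in KO, with 429. Whether the genotype difference depended on diet was tested by the interaction, KO minus CT on HFC less KO minus CT on CTD. It called 0 genes (0%) by edgeR, with 546 (3.90%) at an unadjusted p under 0.05. DESeq2 called 0 with 536 and limma voom with sample quality weights 0 with 1619. Il6ra was among the interaction genes of smallest p. Its CTD means were 71.3 ± 19.7 CPM in CT and 91 ± 11.5 CPM in KO (SD, n = 3), opposite in sign to HFC, with an interaction of -0.97 on the log2 scale (SE 0.26) and an adjusted p of 0.992 by edgeR. Glul had an interaction of -0.78 (SE 0.24) and Gclc of 0.98 (SE 0.29), both with an adjusted p of 0.992. Il6ra, Glul and Gclc were picked for their separation on HFC, and the same HFC values enter the interaction. Its size for them is therefore no support for a dependence on diet. Sult3a1, Oser1, Hypk and Wdr91 were the other interaction genes of smallest p with at least 5 CPM in a group. Each of Oser1, Hypk and Wdr91 lay higher in KO on HFC and lower in KO on CTD, at log2 fold changes of 0.10 and -0.43, 0.35 and -0.61, and 0.27 and -0.36. Across 9775 genes the HFC and CTD estimates had a Pearson correlation of -0.108 and a Spearman correlation of -0.171. The animals differ but the fit and its dispersion are shared, and genes are not independent replicates.

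In males on HFC, 4 KO against 4 CT livers, edgeR called 0 of 14078 genes (0%), with 653 (4.64%) at an unadjusted p under 0.05. DESeq2 called 3, Gm10359, Gm12671 and Gm12918, all lower in KO, with 688, and limma voom with sample quality weights called 0 with 687. Across 9771 genes the female and male HFC estimates had a Pearson correlation of 0.461 and a Spearman correlation of 0.446, with no animal in common. This is a description across genes, which are not independent. The difference between the sexes in the genotype effect on HFC called 0 of 14685 genes (0%) by edgeR, with 198 (1.35%) at an unadjusted p under 0.05. DESeq2 called 1, Gm12918, and limma voom with sample quality weights 0, with 202 and 917 at an unadjusted p under 0.05. The genes of smallest p that averaged at least 5 CPM in a group were Rhobtb2, Aim1l, Noa1, Ctnnal1 and Tmf1, all with an adjusted p of 1. Trem2 and Gclc, among the leading female genes, had female minus male differences of 0.82 (SE 0.38) and 0.66 (SE 0.28), also with an adjusted p of 1. Both were picked for their separation in the female livers, so these differences are no support for a dependence on sex.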

How the data were processed

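RNA from whole livers of 28 mice was sequenced by DNBSEQ, per the labels' protocols. The authors deposited raw read counts per gene and CPM values, 1 column an animal and 32544 genes. The deposited CPM equal count over library total within 1e-04 (largest difference 4.44e-05 in females). The submitters' processing notes name FastQC, edgeR and GRCm38 (mm10). No source used here gives the aligner, counter, annotation or use of strand, so overlapping, antisense and near-identical genes are uncertain.

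From the counts, genes were filtered with filterByExpr, scaled with TMM and fitted in edgeR 4.0.16 (R 4.3.3) with 1 mean per female group and robust quasi-likelihood dispersion, so that the 12 female libraries share 1 estimate of spread (biological coefficient of variation 0.199, males 0.161). Contrasts used the quasi-likelihood F test with Benjamini-Hochberg adjustment over all tested genes, called at 0.05. The SE is the log2 fold change over the square root of F. DESeq2 1.42.0 and limma 3.58.1 were alternatives, the latter also on log2(deposited CPM + 1). The model was tested on simulated counts. Animals were grouped by label. Each has its own number, and p-values measure the spread between animals. Between replicates of a group, chi-square per degree of freedom was at least 20.6, so no libraries were merged. What the number series of the animals stand for is not given in these sources.

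The members and the 52 gene lists (922 genes) were chosen with earlier results of these data known. Lists are described by counts and medians, without a test. Named genes were Myc, the 10 genes of smallest p in each direction with at least 5 CPM and no overlap of the groups, and list members. Each list with a member at an unadjusted p under 0.05 gave up to 3 members of smallest p, which need not all pass 0.05. The endothelial and Myc lists gave up to 5 members whatever their p. Up to 5 genes of the interaction and sex difference were added. Not all are printed, and other list members were chosen for their known roles after values were seen. Of the symbols, 96.7% matched GENCODE M21, which gave coordinates counted from 1.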

Additional observations from a re-analysis of the deposited data

How the results depend on the processing

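For KO against CT females on HFC, the count of called genes was 0 under each alternative run (DESeq2, limma voom with sample quality weights, limma on deposited CPM, library totals, DESeq2 size factors, no filter on low counts, no robust dispersion, the 6 libraries alone, all 28 libraries) and ranged from 0 to 9 over leaving out 1 liver, the 9 being without KO HFC 413. The interaction ranged from 0 to 1, the 1 being Lrrc3 without KO HFC 413. The cause was not tested. The other comparisons gave 0 when 1 liver was left out. DESeq2 called 1 gene (Fbf1) in females on CTD, 3 in males on HFC and 1 for the sex difference, all 4 without a call by edgeR.

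As log2 fold changes, genes of the naming rule that turned direction with sample quality weights were Thbd (0.01), Il33 (-0.18), Upk1b (-0.12) and Msln (-0.48). Among the same genes, over leaving out 1 liver, Cav1 ranged from -0.24 (without KO HFC 413) to 0.91, Mlxip from -0.31 to 0.04 (without KO HFC 413), Upk1b from -0.10 (without KO HFC 413) to 0.83, Msln from -0.49 (without KO HFC 413) to 0.83, Tnfsf10 from -0.55 to 0.07 (without CT HFC 420) and Socs3 from -1.07 to 0.22 (without CT HFC 510). Other printed list members also turned over leaving out 1 liver: Mki67 (-0.93 to 1.02), Col1a1 (-0.16 to 1.14), Cd68 (-0.10 without KO HFC 412), Acta2 (-0.32 to 0.57), Tgfb1 (-0.19 to 0.23), Timd4 (-0.14 to 0.54), Adgre1 (-0.46 to 0.18), Kdr (-0.49 to 0.01), Cdh5 (-0.18 to 0.07), Ncl (-0.03 to 0.12), Cyp7a1 (-1.53 to 0.02) and Axin2 (-0.41 to 0.20). Over all alternatives Col1a1 reached -0.44. Of 52 list medians, 28 had the opposite sign under at least 1 alternative, 25 of them when 1 liver was left out. Sample quality weights turned 10, among them matrix metalloproteinases (-0.23), mesothelial cells (-0.48), bile duct cells (-0.01), collagens and stellate cells. Neither endothelial marker list turned. The cause was not tested. With library totals the median of all genes was 0.07 in place of 0.01. No paired analysis was possible because each animal has its own number and the genotypes share none. With 3 animals a group, genes under about 5 CPM have wide intervals, and intervals from counts cover counting error only.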

Other observations

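Clock-controlled and stress genes were also read in the female HFC livers, and none was called. By list medians both overlapped between the groups. The circadian list stood at -0.56, -0.01 and -0.16 in KO 412, 413 and 419. In CT it stood between -0.14 and 0.20, with KO 413 inside that range. Of 17 circadian genes 3 estimates were above 0, with a median log2 fold change of -0.23, and of -0.08 without KO 412. Ciart, a repressor of the clock, held 10.8, 8.75 and 19.4 CPM in CT and 4.25, 5.69 and 7.68 CPM in KO, so the groups did not overlap. Per3, a period gene, held 40.4, 27.9 and 51 CPM in CT and 14.5, 33.4 and 34.6 CPM in KO, with overlap. The hour of tissue collection is not given in the sources used here. Among 22 genes of the unfolded protein and integrated stress responses 17 estimates were above 0, with a median of 0.17, or 0.05 without KO 412. Atf3, a transcription factor induced by stress, held 4.85, 3.84 and 2.14 CPM in CT and 14.9, 5.41 and 9.05 CPM in KO, while Chac1 of the same list was lower in KO.

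Genes of bile duct cells had a median of 0.29 with all 11 estimates above 0, and of -0.06 without KO 412. Krt8, a keratin of hepatocytes, ducts and mesothelium, stood at 164, 146 and 175 CPM in CT and at 412, 190 and 187 CPM in KO. KO 412 held more than any other liver, and the groups did not overlap. Igfbp2, an insulin-like growth factor binding protein made by hepatocytes, stood at 535, 433 and 590 CPM in CT and at 386, 426 and 376 CPM in KO, without overlap and with a log2 fold change of -0.39 (SE 0.17). Mzb1, a plasma cell gene, held 0.895, 1.53 and 0.32 CPM in CT and 0.411, 0.332 and 0.471 CPM in KO, and Igkc, the immunoglobulin kappa constant gene, 65.9, 90.4 and 18.1 CPM against 28.7, 36.5 and 40 CPM. For both, CT 512 was below every KO liver and the other controls above them.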
